A study of Mus musculus with 8 samples.

Results

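Chemokines and their receptors were examined in the tips of secondary alveolar septa and in whole lung of neonatal mice. The members were the probe sets whose single annotated symbol begins with Ccl, Cxcl, Cx3cl, Ccr, Cxcr or Cx3cr followed by a number, leaving out the lung epithelial gene Cxcl15. This gave 41 of the 12488 probe sets on the array, for 36 genes: 28 probe sets of 23 ligand genes and 13 probe sets of 13 receptor genes. Tip samples came from C57/Bl6 mice at postnatal day 6. They were cut by laser capture, a microscope-guided way of lifting chosen areas from frozen sections, and 10000 tips from animals of several litters were pooled. Whole lung RNA was prepared from pooled lungs of the same strain and age, so both groups were untreated neonatal tissue. They differed in the part of the organ sampled and in preparation, laser capture for tips and pooled whole lungs for lung. These differences cannot be told apart here. The experiment was carried out on separate litters as experiments 1 and 2, and each of the 4 RNA samples was run on 2 Affymetrix arrays on separate occasions (arrays 1 and 2), giving 4 tip arrays and 4 lung arrays. Samples were grouped by their titles, which the source names match, although the description field of the tip samples names whole lung as the tissue. Capture takes all cells at the tip, whether epithelial, endothelial, mesenchymal or blood-borne.

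Chemokines are small secreted proteins that guide leukocyte movement, and their receptors are proteins of the cell surface that signal through inhibitory G proteins. Ligands are named for the spacing of their first cysteines (CC, CXC and CX3C), and most receptors bind several ligands of the matching class. Homeostatic chemokines such as Cxcl12 are made continuously by stroma and vessels, while inflammatory ones such as Ccl2 or Cxcl10 are induced by infection or injury. In the lung, the monocyte receptors Ccr2 and Cx3cr1 distinguish the inflammatory and the patrolling populations.

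The values were signals per probe set in arbitrary units on a linear scale. Background on an array was the level that 95% of its 19 bacterial and yeast absent controls did not exceed. It lay between 486.5 and 1244 on the tip arrays and between 314 and 568 on the lung arrays, highest on array 2 of the tip RNA of experiment 1. A signal of a given size could thus count as above background in lung and under it in tips. Each difference is on the log2 scale, tips minus lung, after an offset of 150.1 was added to the signal, and is given with its standard error (n = 2 RNA samples in each tissue). Adjusted p-values are from limma with Benjamini-Hochberg adjustment over all 7453 probe sets tested, and the threshold was 0.05. The median difference of all tested probe sets was 0.35, so a member at 0.35 moved with the bulk of the array.

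Most of the family was near or under background. Of the 41 probe sets, 5 were above background on every tip array and 9 on every lung array, against 30.1% and 42.9% of all 12422 probe sets that were not controls. Above it on all 8 arrays were 4, those of Ccl22 and Cx3cr1 and 2 of the 3 of Cxcl12 (26.5% of all probe sets). A further 12 were under background on all 8 arrays (17.1% of all): Ccl7, Ccl12, Ccl17, Ccl25, Cxcl2, Cxcl9, Cxcl13, Cxcl14, Ccr7, Ccr8, Ccr9 and Cxcr4. The other probe sets above background throughout lung were those of Ccl3, Ccl6 and Ccr2, the dimmest of Cxcl12 and 1 of the 2 of Ccl1. The probe set of Cx3cl1 was the one that exceeded background on all tip arrays and on no lung array. The remaining 19 were above background on some arrays but not throughout either tissue. A filter on dim probe sets was passed by 13 probe sets of 11 genes, and the 28 that did not pass were not tested. On the unscaled signals tips and lung did not overlap for 12 of the 41, against 33.3% of all probe sets.

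**Figure D1:**
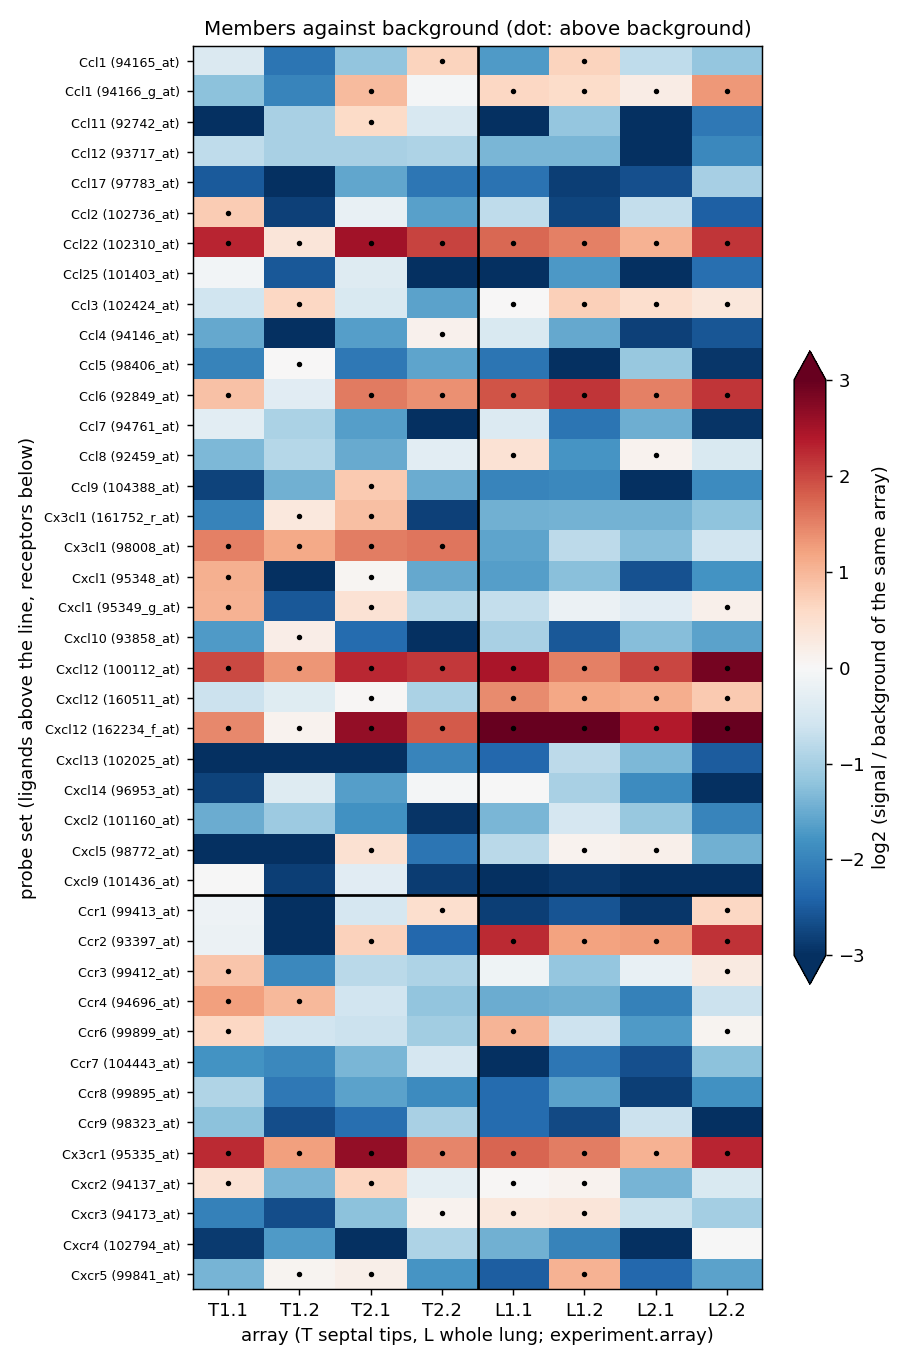
Signal of each of the 41 probe sets (rows, ligands above the line and receptors below it) over the background of the same array, on a log2 scale, for the 4 tip arrays (T) and then the 4 lung arrays (L), numbered by experiment and array. A dot marks a signal above background. Ccl22, Cx3cr1 and 2 probe sets of Cxcl12 carry a dot in all 8 columns, and 12 rows carry none.

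Among the 13 probe sets tested, 3 were higher in tips, those of Cx3cl1, Cx3cr1 and Ccl22, and 1 was lower, that of Ccr2. The shares over all tested probe sets were 14.5% higher and 13.7% lower. The other 9 did not pass, with adjusted p between 0.169 and 0.941. The median difference of the 13 was 0.59, beside 0.35 for all tested probe sets. A change in signal in these samples cannot tell more or fewer cells of a type from more or less RNA per cell.

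**Figure D2:**
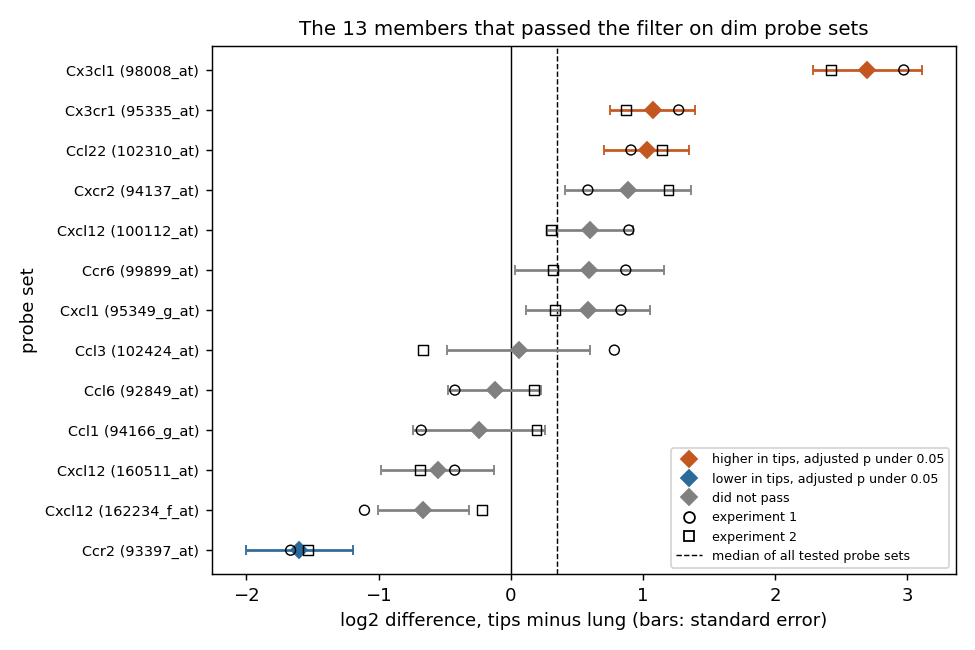
Log2 difference of tips minus lung (horizontal axis) for the 13 probe sets tested, with bars of 1 standard error, open symbols for the difference in experiment 1 and in experiment 2, and a dashed line at the median of all tested probe sets, 0.35. Cx3cl1 lies farthest to the right at 2.70 and Ccr2 farthest to the left at -1.60, and the symbols of Ccl3, Ccl6 and Ccl1 fall on both sides of 0.

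Cx3cl1 encodes fractalkine, a chemokine on a mucin stalk that is held in the membrane of endothelial and epithelial cells and can be shed. At its probe set 98008_at, tips of experiment 1 had signals of 2244 and 2725 and tips of experiment 2 had 1418 and 2395, against 133 and 244 in lung of experiment 1 and 233 and 212 in lung of experiment 2. All tip arrays were above background and all lung arrays were under it, and the groups did not overlap. Mean signals were 2195 ± 409 in tips and 205 ± 24.1 in lung (SD, n = 2). Tips were at least 5.15-fold brighter, taken against the higher of background and signal on each lung array, and the fitted difference was 2.70 ± 0.41 (limma adjusted p = 0.00291). The array pairs of tips and lung differed by 3.08 and 2.87 in experiment 1 and by 2.03 and 2.81 in experiment 2. The first arrays alone gave 2.56 and the second arrays alone 2.84, both past the threshold. With all values under 1244, the highest background level, raised to it, the difference was 0.72 (adjusted p = 0.0899), and without the lung RNA of experiment 1 the adjusted p was 0.0501. A second probe set of Cx3cl1, 161752_r_at, was too dim to be tested. It had 196, 1542, 916 and 114 on the tip arrays, with 2 above background, against 145, 157, 214 and 137 on the lung arrays, with none above it.

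Cx3cr1, the receptor of fractalkine, is carried by patrolling monocytes and by tissue macrophages. Its signals were 3685 and 2922 in tips of experiment 1 and 3047 and 2200 in tips of experiment 2, against 1325 and 1222 in lung of experiment 1 and 1172 and 1537 in lung of experiment 2. Every tip array lay above every lung array, and all 8 were above background. Means were 2963 ± 481 in tips and 1314 ± 57.8 in lung (SD, n = 2), a difference of 1.07 ± 0.32 (limma adjusted p = 0.0374), or 0.72 above the median of all probe sets. Experiment 1 gave 1.27 and experiment 2 gave 0.88. It was 1.33 on the first arrays (adjusted p = 0.0412) and 0.82 on the second (adjusted p = 0.149). The tested probe set of the ligand and that of the receptor were thus both brighter in tips on all 4 array pairs. This follows from groups that did not overlap and adds no support to either call. The pairs also repeat 2 RNA samples in each tissue. The probe set of Cx3cl1 that was too dim to be tested was brighter in tips on 3 of the 4 pairs.

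Ccl22, a CC chemokine of dendritic cells and macrophages that draws T cells bearing Ccr4, was also higher in tips. It had 3812 and 1596 in tips of experiment 1 and 2793 and 3219 in tips of experiment 2, against 1303 and 1198 in lung of experiment 1 and 1162 and 1390 in lung of experiment 2. The groups did not overlap, though array 2 of the tip RNA of experiment 1 lay close to lung. Means were 2855 ± 214 in tips and 1263 ± 17.7 in lung (SD, n = 2), a difference of 1.03 ± 0.32 (limma adjusted p = 0.0427), 0.68 above the median of all probe sets. The first arrays gave 1.31 (adjusted p = 0.0465) and the second 0.75 (adjusted p = 0.240).

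The calls of Cx3cr1 and Ccl22 depended on the scaling and on single RNA samples. Quantile normalization gave differences of 0.86 and 0.77 (adjusted p = 0.107 and 0.132). Median centring gave 0.53 and 0.49 (adjusted p = 0.282 and 0.350), and cyclic loess 0.87 and 0.80 (adjusted p = 0.0800 and 0.0992). Without the lung RNA of experiment 1 the adjusted p was 0.229 for Cx3cr1 and 0.242 for Ccl22, and without that of experiment 2 it was 0.190 and 0.215. Without array 2 of the tip RNA of experiment 1 it was 0.0502 for Cx3cr1 and 0.0287 for Ccl22. Cx3cl1 passed under all 3 other scalings, at 2.34, 2.16 and 2.21.

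**Figure D3:**
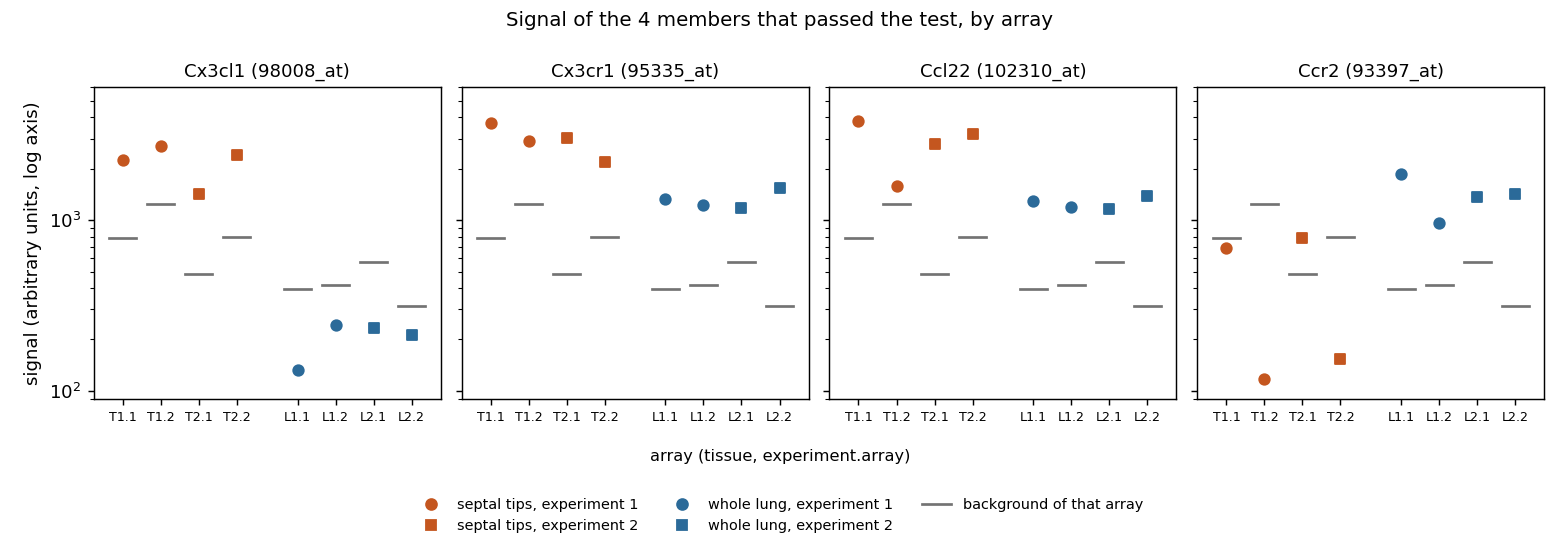
Signal (vertical log axis, arbitrary units) of the 4 probe sets that passed the test on each tip array (T, left in each panel) and each lung array (L, right), with circles for experiment 1, squares for experiment 2 and a grey line at the background of each array. Cx3cl1 is above the grey line in tips and under it in lung, Cx3cr1 and Ccl22 are above it on all arrays, and Ccr2 is above it on all lung arrays and on 1 tip array.

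Ccl22, Cx3cl1 and Ccl17 are consecutive protein-coding genes in the RefSeq annotation, on chromosome 8. Ccl17, which shares the receptor Ccr4 with Ccl22, was under background on all 8 arrays, with 137, 154, 165 and 177 in tips against 84, 59, 92 and 156 in lung. Of the 3 genes of this run, Cx3cl1 and Ccl22 were thus higher in tips, while Ccl17 was not above background in either tissue and was not tested. Over all tested probe sets 14.5% were higher. The count in this run restates the calls given above and adds no support to them. Shared regulation of the run was not tested. Ccr4 was too dim to be tested and was chosen after its values were seen. It had 1829 and 2431 in tips of experiment 1, both above background, but 325 and 349 in tips of experiment 2, both under it. All lung arrays were under background, at 140 and 154 in experiment 1 and at 140 and 200 in experiment 2. The values above background thus came from experiment 1 alone. Without the filter on dim probe sets the adjusted p was 0.113, with differences of 2.93 in experiment 1 and 0.61 in experiment 2.

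The promoters of the genes that were higher in tips are shown because Cx3cl1 and Ccl22 are neighbours on the same strand and Cx3cr1 encodes the receptor of the first. Each sequence is the 250 bases before the gene start in RefSeq, build GRCm38.p6, which held a promoter for 28 of the 36 member genes. Capitals mark matches on either strand to GGGNNNNNCC, a loose form of the site of NF-kB, to TATAAA, the TATA box, or to GAGGAA, the core of the site of PU.1, a factor of myeloid cells.
Cx3cl1: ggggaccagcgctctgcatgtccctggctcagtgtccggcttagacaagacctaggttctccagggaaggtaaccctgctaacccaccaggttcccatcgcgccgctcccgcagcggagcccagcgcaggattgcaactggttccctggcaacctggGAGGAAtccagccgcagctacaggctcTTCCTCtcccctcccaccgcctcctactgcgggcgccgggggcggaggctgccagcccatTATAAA
Ccl22: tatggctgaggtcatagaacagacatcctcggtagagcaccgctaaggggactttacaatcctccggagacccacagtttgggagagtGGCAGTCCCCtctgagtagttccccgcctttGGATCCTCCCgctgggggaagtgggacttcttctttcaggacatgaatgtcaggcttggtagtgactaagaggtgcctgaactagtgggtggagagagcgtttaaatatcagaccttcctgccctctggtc
Cx3cr1: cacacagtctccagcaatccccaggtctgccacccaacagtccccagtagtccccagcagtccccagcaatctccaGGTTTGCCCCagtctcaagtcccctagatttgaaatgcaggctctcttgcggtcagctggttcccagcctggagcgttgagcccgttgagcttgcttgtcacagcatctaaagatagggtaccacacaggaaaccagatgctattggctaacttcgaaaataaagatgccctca
These lie at chr8:94771930-94772179 on the plus strand, chr8:94745434-94745683 on the plus strand and chr9:120068297-120068546 on the minus strand. The Cx3cl1 window held 1 TATAAA, at its end, and 2 matches to GAGGAA. The Ccl22 window held 2 matches to GGGNNNNNCC and the Cx3cr1 window 1, and no marked match overlapped another. Over all 32851 promoter windows of this length, 45.8% held GGGNNNNNCC, 12.4% held TATAAA and 23.3% held GAGGAA. The 3 windows had no motif of the 3 in common, and the presence of these letters shows no binding.

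Ccr2, the receptor through which Ccl2 releases inflammatory monocytes from bone marrow, was lower in tips. Its signals were 687 and 117 in tips of experiment 1 and 782 and 154 in tips of experiment 2, against 1875 and 960 in lung of experiment 1 and 1366 and 1421 in lung of experiment 2. All lung arrays were above background, 1 of the 4 tip arrays was, and the groups did not overlap. Means were 435 ± 47.0 in tips and 1405 ± 17.2 in lung (SD, n = 2), a difference of -1.60 ± 0.41 (limma adjusted p = 0.0204), or -1.95 against the median of all probe sets. In both experiments array 2 of the tip RNA was dimmer than array 1. The first arrays alone gave -0.99 (adjusted p = 0.150) and the second arrays -2.21 (adjusted p = 0.0484). It passed after quantile normalization (adjusted p = 0.0126), and at -2.14 with median centring and -2.10 with cyclic loess. It did not pass when the lung RNA of either experiment was left out (adjusted p = 0.216 and 0.214) or without array 2 of the tip RNA of experiment 1 (-1.19, adjusted p = 0.0984). With values under 1244 raised to it the difference was -0.21 (adjusted p = 0.150). All tip signals and the lung signal of 960 then lie at that floor.

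The ligand Ccl2 was above background on 1 array, at 1325 in tips of experiment 1 on array 1. The other tip arrays had 179, 418 and 254, and lung had 232, 62, 344 and 57. Ccr1 and Ccr3, which precede Ccr2 on chromosome 9 in the same run of receptor genes, were each above background on 1 tip array and 1 lung array and were not tested. Ccr1, bound by Ccl3 and Ccl5, averaged 560 in tips and 171 in lung. Ccr3, the eotaxin receptor of eosinophils, averaged 604 in tips and 352 in lung.

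Markers of the cells that carry these receptors also differed between the samples. Of 4 pan-leukocyte genes tested, 0 rose and 3 fell in tips: Ptprc, which encodes CD45, by 1.95, Laptm5 by 1.39 and Lcp1 by 1.02 on the log2 scale (limma adjusted p = 0.00930, 0.0218 and 0.0432). Ptprc was above background on 1 of 4 tip arrays, and with values under 1244 raised to it its difference was -0.49 (adjusted p = 0.154). The first arrays alone gave -1.85 for Ptprc (adjusted p = 0.0736) and the second -2.05 (adjusted p = 0.0477). Laptm5 gave -0.62 with quantile normalization and -0.51 with cyclic loess (adjusted p = 0.257 and 0.324), and its other tested probe set gave 0.82 ± 0.46 (adjusted p = 0.199). The summed signal of the 5 pan-leukocyte genes with a probe set was 16737 to 20842 in tips and 40425 to 60116 in lung, or 3429 to 5544 in tips and 6188 to 10484 in lung without Laptm5, the brightest. None of the 3 passed when either lung RNA was left out (adjusted p from 0.0581 to 0.341). Of 10 macrophage and monocyte genes tested, 0 rose and 2 fell. Ctss, a lysosomal protease gene, fell by 3.05 and the mannose receptor gene Mrc1 fell by 1.62 on the log2 scale (limma adjusted p = 0.00095 and 0.0423). Mrc1 was above background on 1 of 4 tip arrays, so its size rests on tip signals under background, and with values under 1244 raised to it the difference was -0.12 (adjusted p = 0.388). Csf1r, the receptor that macrophages need to survive, gave 0.61 ± 0.36 (adjusted p = 0.214), and Lyz2, the lysozyme gene of myeloid cells, 0.60 ± 0.30 (adjusted p = 0.160). Mpeg1 went the other way at -0.98 ± 0.36 (adjusted p = 0.0663), as did the other tested probe set of Csf1r at -0.58 ± 0.55 (adjusted p = 0.440). The sum over the 13 genes of that list was 33212 to 49530 in tips and 52647 to 77382 in lung. Without Ctss it was 29793 to 44346 in tips and 25948 to 34034 in lung, so the lower sum in tips came from Ctss, and the median difference of the 10 genes was 0.49. Marco and Itgam were under background on all 8 arrays. With 1 probe set a gene, its brightest, the background was 14.6% of genes higher and 15.1% lower. No tested gene of these 2 lists rose, beside the higher Cx3cr1, and the part of cell numbers in either receptor's difference was not tested. Of 7 endothelial genes, 4 rose, among them Tie1 by 1.94 and Icam2 by 1.64, and Tek fell by 1.72. Without the lung RNA of experiment 2 the adjusted p was 0.0800, 0.0539 and 0.0585 for these 3. Their summed signal was 351205 to 362631 in tips and 81284 to 124969 in lung, or 41618 to 69052 in tips and 28466 to 33386 in lung without Eng, the brightest, beside the higher Cx3cl1, and its part in that result was not tested.

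Other lists of leukocyte and tissue genes gave small counts, beside 14.6% higher and 15.1% lower over all genes. Neutrophil genes rose for 1 of 7 tested, S100a9 by 1.69, T and NK cell genes for 1 of 4, Cd4 by 1.42, and B cell genes for 2 of 4, Cd79b by 1.68 and Ighm by 1.33, and 0 fell in each list. With quantile normalization, median centring and cyclic loess S100a9, Cd4 and Ighm did not pass (adjusted p from 0.0519 to 0.189), and Cd79b passed with cyclic loess alone (adjusted p = 0.0453). None of these 4 passed when the lung RNA of either experiment was left out (adjusted p from 0.0778 to 0.253). Of the T cell receptor complex genes, Cd3e and Cd3d were under background on all arrays and Cd3g was above it on 1 tip array. Of 2 genes of mast cells and basophils, 1 of platelets and 5 of fibroblasts, 0 passed. Of 3 alveolar epithelial genes 1 rose and 1 fell, and of 2 airway genes both rose. Among the 20 alternatives, Lcp1 passed under 9 and Mrc1 under 11.

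Cxcl12, the homeostatic chemokine that retains stem cells and guides vessel growth, was the member seen at 3 probe sets that passed the filter, and they did not share a direction. At 100112_at tips had 3098 and 3110 in experiment 1 and 2335 and 3466 in experiment 2, against 2143 and 1187 in lung of experiment 1 and 2269 and 2283 in lung of experiment 2. Tips were above every lung array, by 0.60 ± 0.32 (limma adjusted p = 0.183). At 162234_f_at tips had 2107 and 1347 in experiment 1 and 3001 and 2813 in experiment 2, against 3410 and 4252 in lung of experiment 1 and 2943 and 3924 in lung of experiment 2. The groups overlapped there in experiment 2, and the difference was -0.66 ± 0.34 (limma adjusted p = 0.169). Without the tip RNA of experiment 2 it was -1.03 and passed (adjusted p = 0.0228). At 160511_at tips had 503, 973, 499.8 and 410 and were above background on 1 array, against 1060, 941, 1204 and 544 in lung, above background on all 4. That difference was -0.55 ± 0.42 (limma adjusted p = 0.337). The ending f_at marks probes that related transcripts can share. No direction for Cxcl12 held over its probe sets, and none of the 3 passed.

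Its signalling receptor Cxcr4, carried by most leukocytes and by sprouting vessels, was under background on all 8 arrays. It had 108, 381, 58 and 415 in tips against 146, 105, 50 and 313 in lung, the last just under that array's background of 314. The second receptor of Cxcl12, Ackr3, takes up the chemokine without G protein signalling and belongs to a list of atypical receptors and chemokines outside the name rule. Ackr3 had 275 and 119 in tips of experiment 1 and 681 and 311 in tips of experiment 2, against 5765 and 4227 in lung of experiment 1 and 2559 and 2181 in lung of experiment 2. Lung arrays were all above background and 1 of 4 tip arrays was, and the groups were far apart. Means were 346 ± 212 in tips and 3683 ± 1857 in lung (SD, n = 2), a difference of -2.97 ± 0.47 (limma adjusted p = 0.00358), which passed with all 3 other scalings but not without the lung RNA of experiment 1 (adjusted p = 0.0965). Its size rests on tip signals mostly under background, and with values under 1244 raised to it the difference was -1.36 (adjusted p = 0.0840).

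**Figure D4:**
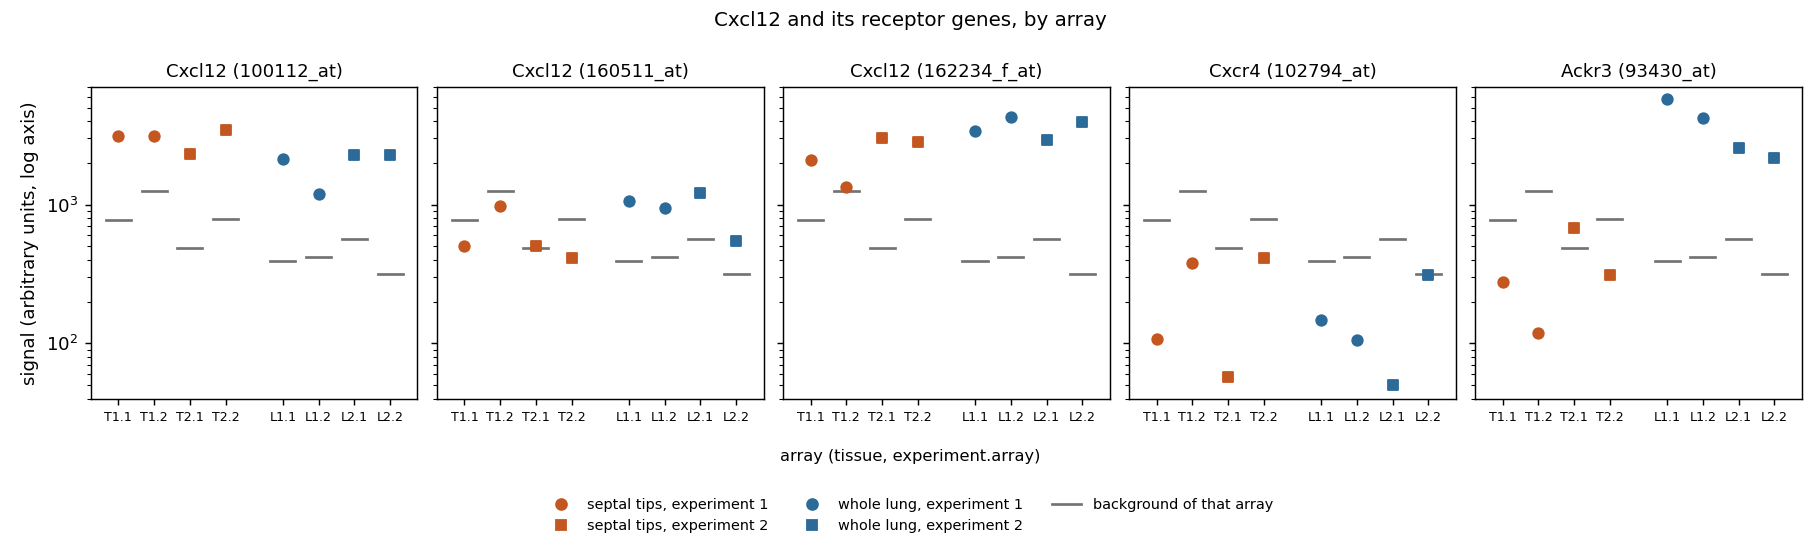
Signal (vertical log axis, arbitrary units) of the 3 probe sets of Cxcl12, of Cxcr4 and of Ackr3 on the tip arrays (T, left) and lung arrays (L, right), with circles for experiment 1, squares for experiment 2 and a grey line at the background of each array. Cxcr4 is under the grey line on all arrays, though by little on the last lung array (313 against 314), and Ackr3 lies between 119 and 681 in tips and between 2181 and 5765 in lung.

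Of the 7 genes of the atypical receptor list that were tested, 1 rose and 1 fell, beside 14.6% higher and 15.1% lower over all genes. Both counts were thus near the background. Besides Ackr3, the called gene was Ccrl2, a receptor-like protein that presents the attractant chemerin. Its signals were 6626, 7821, 7000 and 6307 in tips against 2549, 2183, 3809 and 4201 in lung. The groups did not overlap and the difference was 1.13 ± 0.33 (limma adjusted p = 0.0342). It was not past the threshold under 9 of the 20 alternatives, among them each omission of a lung RNA (adjusted p = 0.272 and 0.0579), median centring (0.59, adjusted p = 0.270) and the omission of array 2 of the tip RNA of experiment 1 (adjusted p = 0.0529). Ackr4, a scavenger of Ccl25 and other homeostatic chemokines, gave -0.12 ± 0.32 (adjusted p = 0.791), and Ackr2, a scavenger of inflammatory CC chemokines, 0.78 ± 0.37 (adjusted p = 0.134). Ackr1, the Duffy receptor, was under background on all arrays.

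Of the remaining CC ligands, Ccl6, Ccl3 and Ccl1 were above background on every lung array. Ccl6, a rodent chemokine of myeloid cells, had 1432, 987, 1426 and 2057 in tips against 1462, 1853, 1625 and 1380 in lung. It was above background on 7 arrays, the groups overlapped and the difference was -0.12 ± 0.35 (limma adjusted p = 0.811). Ccl3, which draws monocytes through Ccr1, had 514, 1904, 356 and 260 in tips against 400, 686.5, 800 and 397 in lung. It was above background on all lung arrays and on 1 tip array, the bright one, and its difference of 0.06 ± 0.54 (adjusted p = 0.941) had opposite signs in experiments 1 and 2, at 0.78 and -0.66. Ccl1, a ligand of Ccr8, was above background on all lung arrays and 1 tip array at 94166_g_at, with 332, 317, 943 and 755 in tips against 608, 609, 665 and 776 in lung and a difference of -0.24 ± 0.50 (adjusted p = 0.735). Its second probe set was above background on 1 array of each tissue.

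In the annotation, Ccl2, Ccl7, Ccl11, Ccl12, Ccl8 and Ccl1 are consecutive on chromosome 11, and so are Ccl5, Ccl9, Ccl6, Ccl3 and Ccl4 in a second run. Of the 12 probe sets of these runs, 3 were above background on every lung array, those of Ccl1, Ccl6 and Ccl3, against 42.9% of all probe sets. The same 3 were the ones tested, and 0 passed, beside 14.5% higher and 13.7% lower over all tested probe sets. Ccl5, a ligand of Ccr1 made by T cells, was above background on 1 array, at 1262 in tips of experiment 1 on array 2. The other tip arrays had 194, 110 and 265, and lung had 87, 39, 260 and 42. Ccl4, Ccl9 and Ccl11 were each above background on 1 tip array and on no lung array, and Ccl8 on 2 lung arrays. Single arrays above background were not repeated on the second array of the same RNA for Ccl2, Ccl4, Ccl5, Ccl9 or Ccl11.

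CXC ligands of neutrophils were dim in both tissues. Cxcl1, an attractant of neutrophils through Cxcr2, had 1617, 213, 660 and 439 in tips against 239, 368, 448 and 351 in lung at 95349_g_at, with 2 tip arrays and 1 lung array above background. Array 1 of the tip RNA of experiment 1 stood above the rest and array 2 of the same RNA did not, and the difference was 0.59 ± 0.47 (limma adjusted p = 0.358). At 95348_at it had 1632, 118, 506 and 272 in tips against 126, 174, 93 and 90 in lung, again with array 1 of experiment 1 brightest. Cxcl2 was under background throughout, and Cxcl5, an epithelial ligand of Cxcr2, was above it on 1 tip array and 2 lung arrays. The receptor Cxcr2 had 1053, 472, 760 and 651 in tips against 407, 448, 216 and 231 in lung. The groups did not overlap, 2 arrays of each tissue were above background, and the difference of 0.89 ± 0.48 did not pass (limma adjusted p = 0.182).

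The interferon-induced ligands and the lymphocyte receptors gave little signal. Cxcl10 was above background on 1 array, with 240, 1427, 99 and 70 in tips against 201, 72, 233 and 103 in lung. Cxcl9 was under background on all 8 arrays, at 775, 176, 382 and 110 in tips against 25, 56, 64 and 28 in lung, so its separation lies within the range of the control probe sets. Without the filter it had an adjusted p of 0.0458, the one call among the 28 members not tested, where 14.1% of all 12422 probe sets were called. Their receptor Cxcr3, of activated T cells, had 190, 198, 208 and 852 in tips against 494, 540, 355 and 154 in lung, above background on 1 tip array and 2 lung arrays. Ccr7, which guides dendritic cells and T cells to lymph nodes, was under background throughout, at 226, 325, 187 and 555 in tips against 15, 93, 92 and 133 in lung. Ccr6, the receptor of Ccl20, had 1210, 834, 309 and 384 in tips against 800, 271, 176 and 334 in lung and a difference of 0.60 ± 0.57 (limma adjusted p = 0.439). Cxcr5, the follicle-homing receptor of B cells, was above background on 2 tip arrays and 1 lung array, and its ligand Cxcl13 on none. Ccr8 and Ccr9, of skin and gut homing, were under background on all 8 arrays, as was Ccl25, the ligand of Ccr9.

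Of 22 tested genes that act downstream of chemokine receptors, 3 rose and 5 fell, beside 14.6% higher and 15.1% lower over all genes. The count higher was near the background. Neither count was tested against these shares, so neither is read as a result about the list. Gnai3, an inhibitory G protein subunit, fell by 4.51, Rgs2, which shortens G protein signals, by 1.95, and the cytoskeletal GTPase Rhoa by 1.52 at its brightest probe set (limma adjusted p = 0.000941, 0.00900 and 0.00997). Rac1, another such GTPase, also fell (adjusted p = 0.0162), though not with quantile normalization or cyclic loess (adjusted p = 0.178 and 0.201). Higher in tips were Fgr, a kinase of myeloid cells, by 1.85, the blood cell GTPase Rac2 by 1.31 and Stat3, a transcription factor, by 1.17 (adjusted p = 0.0188, 0.0494 and 0.0203). Rac2 did not pass with any of the 3 other scalings (adjusted p from 0.122 to 0.248), Fgr did not with quantile normalization or median centring (0.0624 and 0.0706), and Stat3 did not with median centring (0.193). A further probe set of Rhoa differed by 1.36 the other way (adjusted p = 0.0268). Gnai2, the inhibitory subunit that chemokine receptors of leukocytes mainly use, gave -0.59 ± 0.49 at its brightest probe set and 2.15 ± 0.35 (adjusted p = 0.00358) at another. Of 9 tested genes that induce or regulate chemokine expression, 1 rose and 1 fell. Rela, an NF-kB subunit, rose by 1.67 ± 0.30 (adjusted p = 0.00538), and Hif1a, the hypoxia factor, fell by 2.97 ± 0.41 (adjusted p = 0.00197). Of the 9 signalling and inducer genes named with a call at their brightest probe set, Gnai3 and Hif1a passed both without the lung RNA of experiment 1 and without that of experiment 2, and the other 7 failed at least 1 of these. The inducing cytokines Tnf, Il1b, Ifng and Il13 were under background on all 8 arrays at each gene's brightest probe set. Il4, an inducing cytokine of type 2 immunity, was too dim to be tested, with 1469, 1495, 436 and 851 in tips against 62, 75, 34 and 60 in lung at its brightest probe set. It was above background there on 3 of 4 tip arrays and on no lung array. At another Il4 probe set 1 tip array was above background and no lung array was. The remaining Il4 probe sets were under background on all 8 arrays. Il6 and Il17a were above background on 1 tip array each and Il1a on 3 lung arrays.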

How the data were processed

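Signals were measured on 8 Affymetrix arrays of 4 RNA samples. The deposited values are linear intensities. MAS5 is the tool that the submitters' processing notes name, and as deposited the arrays already share a trimmed mean. The labels' protocols give PicoPure extraction and write a RiboAmp amplification for all tip arrays and for 1 lung array, while the design text says that both tissues were amplified in parallel. Detection calls were not used here, and the MAS5 version is not given in the sources used here.

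Arrays were set to a trimmed mean of 1501 (2% trimmed at each end), 10% of it was added as an offset and log2 was taken. Tests left out 66 controls and every probe set under the 40th percentile of mean log2 signal. The 2 arrays of an RNA were averaged. The test was limma 3.58.1 under R 4.3.3 (eBayes, trend in intensity) over the whole table, with 2 residual and 7.05 prior degrees of freedom. The procedure was also run on simulated data with planted differences, which did not model array scaling or background. The limma p-values measure the spread between 2 RNA samples a tissue, from different litters. So few arrays limit precision, with a median standard error of 0.40. Symbols come from the platform annotation, updated by gene ID to RefSeq (GRCm38.p6), and 396 probe sets with several symbols were not named. Fold limits use log2 signals without the offset. The members, gene lists and tests were chosen with earlier results of these data known. Named were all called members, those above background throughout a tissue or on at least 4 arrays, 6 ligand and receptor pairs and up to 4 called genes per list. Other members and listed genes with values were chosen after their values were seen. Ccl21 of those pairs was not analysed here.

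The design text says that tips and lung of an experiment were processed in parallel, so the experiment number pairs the RNA samples. The correlation between the deviations of the 2 tissues was 0.0452. A replicate block for the experiment gave 2452 calls, against 2106 without it, and changed no call of a member.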

Additional observations from a re-analysis of the deposited data

Results flagged for a closer look

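Of the 26 sets of 4 arrays formed by the 13 tested probe sets in tips and in lung, 1 held a single array far from the others. This was Cxcl12 at 100112_at in lung, where array 2 of experiment 1 had a signal of 1187 and the other lung arrays 2143, 2269 and 2283. Its gap to the nearest array took up 0.90 of the group's range on the log2 scale, beyond Dixon's 95% critical value. Chance alone gives about 5% of such sets, and array 1 of the same RNA did not stand apart.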

How the results depend on the processing

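The limits lie in the number of RNA samples, in the signal over background and in the scaling. In place of 2106 calls over all probe sets (1084 higher and 1022 lower in tips), 1263 were made on array 1 only and 826 with the common floor of 1244. Quantile normalization gave 618 higher and 1012 lower calls (median difference 0.03), median centring 271 higher and 1512 lower (-0.19), and cyclic loess 814 higher and 1138 lower (0.06). With 1 RNA sample left out the lone sample of its group was assumed to vary like the other group, and the total ranged from 349 to 3324. In place of 3 members called higher, 1 was called with quantile normalization, median centring, cyclic loess, array 2 only and no intensity trend, 0 with the common floor, and from 0 to 3 with 1 RNA left out. Without the filter on dim probe sets, Cx3cr1 and Ccl22 did not pass (adjusted p = 0.0550 and 0.0619) and Cxcl9 did. In place of 1 member called lower, 0 were on array 1 only, with the common floor, with a lower floor at 792 and without array 2 of the tip RNA of experiment 1, and from 0 to 2 with 1 RNA left out. The lower floor and the omission of that array were added after the data were seen. The calls of Cx3cl1, Ccr2, Ccl22 and Cx3cr1 held under 18, 14, 11 and 10 of 20 alternatives, and none reversed. Ccl3, near 0, turned to -0.43 with quantile normalization, -0.48 with median centring, -0.47 with cyclic loess, -0.32 on array 1 only and -0.35 without array 2 of the tip RNA of experiment 1. With 1 RNA left out, 4 uncalled differences spanned 0, Ccr6 from -0.017 to 1.21, Ccl1 from -0.77 to 0.29, Ccl6 from -0.36 to 0.12 and Ccl3 from -0.62 to 0.74. Against the median control probe set in place of the 95th percentile, 14 members in tips and 22 in lung were above background, and 11 in tips were when 1 array of each RNA sufficed, or 9 on array 1 only, in place of 5. The causes were not tested.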
